A study of Mus musculus with 6 samples.

Results

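The genes described here encode 31 subunits of the proteasome, the protease complex that degrades proteins marked with ubiquitin, in lenses of 2-month-old mice with and without a conditional knockout of fibronectin. They were taken by gene symbol from a table of 41449 genes and other transcribed features, where each of the 31 symbols had 1 row. By position in the complex they form 4 groups: 7 alpha and 7 beta subunits of the 20S core, and 6 ATPases and 11 non-ATPases of the 19S regulatory particle. Total RNA was sequenced from 3 wild-type libraries (WT, strain C57BL/6) and 3 fibronectin conditional knockout libraries (FNcKO, a mixed background of C57BL/6, 129 and FVB/N), each of 2 lenses. All mice were 2 months old and none is labelled as treated. Which Cre line deletes fibronectin, and under which promoter, the labels do not say. Genotype and strain background divide the libraries in the same way and cannot be told apart. The labels call the samples of a genotype biological replicates.

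The 20S core is a barrel of stacked rings. The outer rings are built of alpha subunits, whose tails close the entry channel, and the inner rings of beta subunits, of which Psmb6, Psmb7 and Psmb5 carry the caspase-like, trypsin-like and chymotrypsin-like active sites. The 19S particle caps the barrel. Its non-ATPase subunits bind and remove ubiquitin, and its ring of ATPases unfolds the substrate, opens the channel and threads the chain into the core. In the lens, where fiber cells lose their organelles and keep most of their proteins for life, the complex is known for clearing damaged and regulatory proteins in the epithelium and in young fibers. Its genes are known to be raised together by the transcription factor Nfe2l1 through antioxidant response elements when proteasome activity is short.

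RefSeq promoters of 300 bases, from 250 before to 50 after the start site (assembly GRCm38.p6), were found for 25 of the 31 subunits, 27 promoters in all. The core letters of the antioxidant response element, TGACNNNGC, were searched on both strands, as was the CCAAT box. The first was present in 4 of the 27 promoters (14.8%) and in 12.4% of all 32851 promoters of that length, and the second in 10 of 27 (37.0%) and in 37.4%. Both shares were close to those of all promoters, and no promoter of a subunit held both motifs. Psmb5 and Psmb6 are printed because they encode catalytic subunits and hold the element within 50 bases of the start site, and Psma7 because it had the smallest p of the 31 genes. The windows are chr14:54617946-54618245 (minus strand), chr11:70525107-70525406 (plus strand) and chr2:180042415-180042714 (minus strand). Capitals mark TGACNNNGC in Psmb5 and Psmb6, beginning 47 and 9 bases before the start site, and CCAAT in Psma7, beginning 196 bases before it.
Psmb5: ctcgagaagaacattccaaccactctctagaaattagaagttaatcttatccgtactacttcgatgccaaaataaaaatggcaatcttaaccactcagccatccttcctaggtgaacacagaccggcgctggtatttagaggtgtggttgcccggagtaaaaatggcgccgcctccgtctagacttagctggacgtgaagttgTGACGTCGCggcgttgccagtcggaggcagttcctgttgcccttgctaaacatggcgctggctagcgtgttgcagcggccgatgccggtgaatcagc
Psmb6: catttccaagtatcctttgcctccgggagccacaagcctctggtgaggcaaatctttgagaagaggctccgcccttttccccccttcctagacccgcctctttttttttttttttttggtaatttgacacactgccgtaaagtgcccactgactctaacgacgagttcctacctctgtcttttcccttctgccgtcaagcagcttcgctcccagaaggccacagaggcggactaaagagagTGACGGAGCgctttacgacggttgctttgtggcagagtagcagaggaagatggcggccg
Psma7: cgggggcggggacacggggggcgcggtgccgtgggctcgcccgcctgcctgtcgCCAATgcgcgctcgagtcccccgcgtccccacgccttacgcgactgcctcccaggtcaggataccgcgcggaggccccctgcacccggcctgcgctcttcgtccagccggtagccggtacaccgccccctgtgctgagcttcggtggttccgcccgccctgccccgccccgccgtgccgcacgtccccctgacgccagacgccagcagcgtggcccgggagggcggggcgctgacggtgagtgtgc

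The values are FPKM, fragments per kilobase of transcript and per unit of the library's fragments, which allow levels to be compared between genes. The WT libraries held an estimated 26900000 to 32300000 fragments and each FNcKO library fewer, 20200000 to 21700000. At those depths the 31 genes had between about 113 and 5039 fragments each per library. WT 2 has no value in 3578 rows at the end of the table, which include 1 subunit, Psma4. Fn1, the targeted gene, stood at 0.135, 0.188 and 0.253 FPKM in WT 1 to 3 and at 0.128, 0.0482 and 0.0942 FPKM in FNcKO 1 to 3. It was low in both genotypes. Each FNcKO value lay below each WT value, the closest being 0.128 (FNcKO 1) and 0.135 FPKM (WT 1). With a mean under 1 FPKM, Fn1 was not tested. Fiber markers were abundant in every library and epithelial markers were present. Sums are over the markers with a value in every library. The summed FPKM of 10 fiber markers ran from 166053 to 174820 in WT and from 165508 to 177280 in FNcKO, without Bfsp2, which has no value in WT 2. In that sum Cryaa was higher in FNcKO (means 39128 and 45100 FPKM in WT and FNcKO) and Crybb2 lower (96926 and 90095 FPKM). WT and FNcKO values of Cryaa and Crybb2 did not overlap, nor did those of Bfsp2, Mip and Gja3, which were higher in FNcKO. The share without overlap was 25.6% over all genes tested. Of the 11 fiber markers 0 passed limma's adjusted test, against 1.89% of all genes. Of the 6 epithelial markers Cryab, which is also a fiber marker, had a mean of 25084 FPKM, and the other 5 (Foxe3, Pax6, Cdh1, Gja1 and Pdpn) had means from 9.23 to 20.1 FPKM. Of the other cell types, 9 photoreceptor markers summed to between 22.7 and 64.3 FPKM in WT and between 34.9 and 35.9 in FNcKO. The remaining marker of that list, Gnat1, has no value in WT 2 and stood at 18.9 and 22.2 FPKM in WT 1 and 3 and at 8.84, 9.63 and 9.77 FPKM in FNcKO. For 8 pigment cell markers the sums were 11.6 to 18.95 and 6.67 to 8.46 FPKM. Mlana was at 0 in all FNcKO libraries and at 0.286 to 0.476 FPKM in WT, while Tyr and Tyrp1 had higher means in FNcKO. For 5 ciliary body and iris markers the sums were 30.7 to 39.5 and 60.05 to 81.1 FPKM. Means in WT and FNcKO were 18.3 and 42.9 FPKM for Optc, 5.27 and 15.6 for Aqp1, and 1.38 and 2.14 for Wfdc1. Car2 (10.4 and 9.35 FPKM) and Myoc (0.061 and 0.0175 FPKM) went the other way. No marker of either list was at 0 throughout. Past limma's adjusted test was 1 of 9 tested photoreceptor markers (Gnat1, lower in FNcKO). Of the ciliary body and iris markers 1 of 4 tested passed (Aqp1, higher), and of the pigment cell markers 0 of 2. Over all genes tested the share was 1.89%. An unadjusted limma p under 0.05 was held by 1, 2 and 2 markers of these lists, in that order, against 18.1% of all genes. Taken list by list, markers of red blood cells, of leukocytes and of endothelium each summed to at most 5.13 FPKM in any library. The part of the neighbouring tissues in the subunit values was not tested.

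All 31 subunits were expressed in every library with a value, and all passed the filter of a mean of 1 FPKM. Their mean levels over the 6 libraries ran from 6.39 FPKM for Psma1, an alpha subunit, to 98.0 FPKM for Psmd4, a ubiquitin receptor of the 19S particle. The median subunit stood at 19.4 FPKM, against 3.83 FPKM over all 10149 genes tested, and the lowest, Psma1, still lay above 64.8% of those genes. Levels of genes whose products are built into the complex in equal numbers spanned a ratio of 15.3, or 4.78 among alpha, 4.88 among beta, 3.799 among ATPase and 10.99 among non-ATPase genes. By group the median level was 19.4 FPKM for alpha, 29.3 for beta, 27.6 for ATPase and 17.8 for non-ATPase genes. Within a library the SD of log2 FPKM between the subunits was 0.89 to 0.95, while the median subunit varied by an SD of 0.09 between the WT libraries and of 0.10 between the FNcKO libraries.

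**Figure D1:**
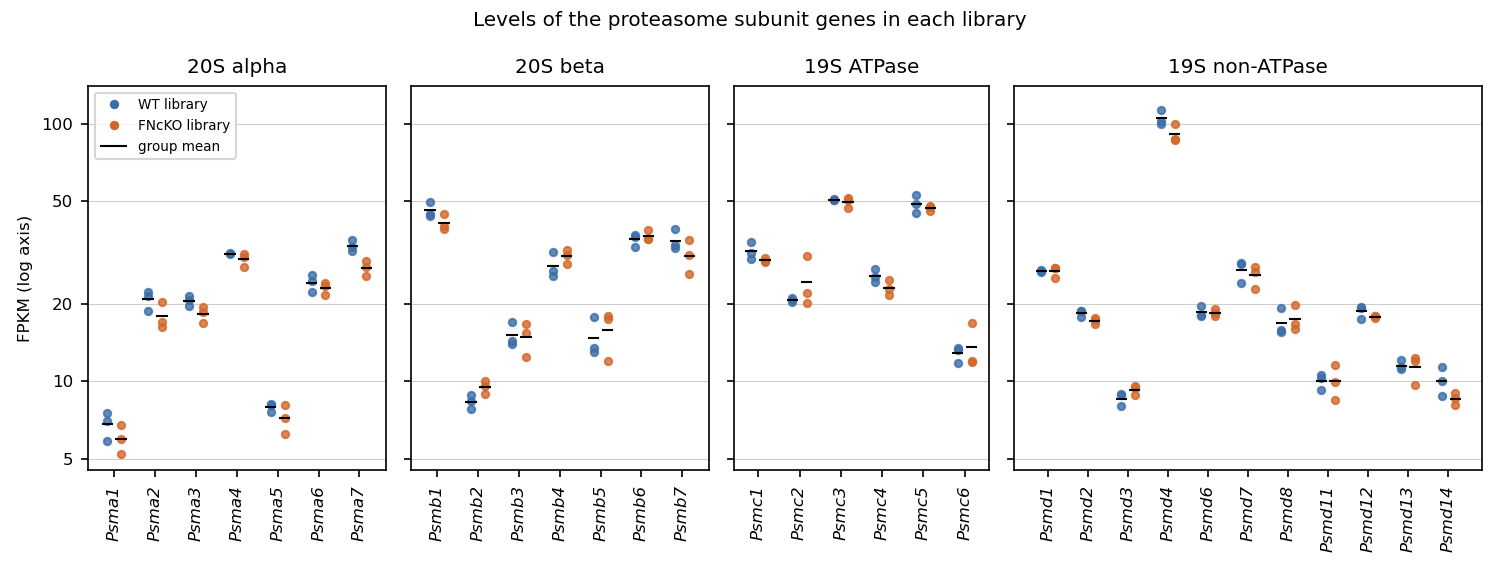
FPKM of each proteasome subunit gene on a log axis, in 4 panels by position in the complex, with 1 point per library and a bar at each group's mean. Psmd4 stands highest near 98.0 FPKM and Psma1 lowest near 6.39 FPKM, and within most genes the WT and FNcKO points lie close together.

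The order of the levels began with Psmd4, whose lowest library (86.6 FPKM) lay above the highest library of any other subunit (53.0 FPKM, Psmc5). Psmc3 (50.1 FPKM), Psmc5 (47.9 FPKM) and Psmb1 (43.6 FPKM) followed, and the library ranges of neighbours among these 3 overlapped. Psmb6 came next at 36.1 FPKM, and its highest library (38.7 FPKM) lay below the lowest of Psmb1 (39.1 FPKM). From Psmb6 down to Psma1 each neighbouring pair overlapped in range, so the order within that stretch is not resolved step by step. The lowest 5 genes were Psmd14 (9.29 FPKM), Psmb2 (8.93), Psmd3 (8.92), Psma5 (7.54) and Psma1 (6.39).

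Between genotypes no subunit passed the test, and the differences were small in both directions. None of the 31 genes passed limma's test at an adjusted p of 0.05 (adjusted p from 0.148 to 0.985), where 192 of the 10149 genes tested did (1.89%), 0.857% of all genes being higher and 1.03% lower in FNcKO. At an unadjusted p under 0.05, 2 subunits passed, Psma7 and Psmb2, in opposite directions, against 18.1% of all genes. WT and FNcKO values did not overlap for 6 subunits (19.4%), 5 of them lower and 1 higher in FNcKO, against 25.6% of all genes. The log2 change was under 0 in 23 subunits (74.2%), against 60.3% of all genes, and its median was -0.06, against -0.04 over all genes. Changes of single subunits lay between -0.28 and 0.20 on the log2(FPKM + 1) scale, and 20 of the 31 fell between the quartiles of all genes (-0.16 and 0.08).

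The subunits were measured with somewhat smaller errors than most genes. The median SE of the log2 change was 0.082 for the subunits and 0.105 for all genes. With the values as deposited, all 31 limma 95% intervals lay within 1.5-fold in either direction on the log2(FPKM + 1) scale. They are not adjusted for the number of genes. The widest bounds were 0.704 (Psmb7) and 1.48 (Psmc2) as folds of FNcKO over WT. With libraries brought to the same FPKM total without crystallins, the log2 change of Psmc2 was 0.61, itself beyond 1.5-fold. In whole lenses, fewer cells of a type and less RNA per cell cannot be told apart.

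**Figure D2:**
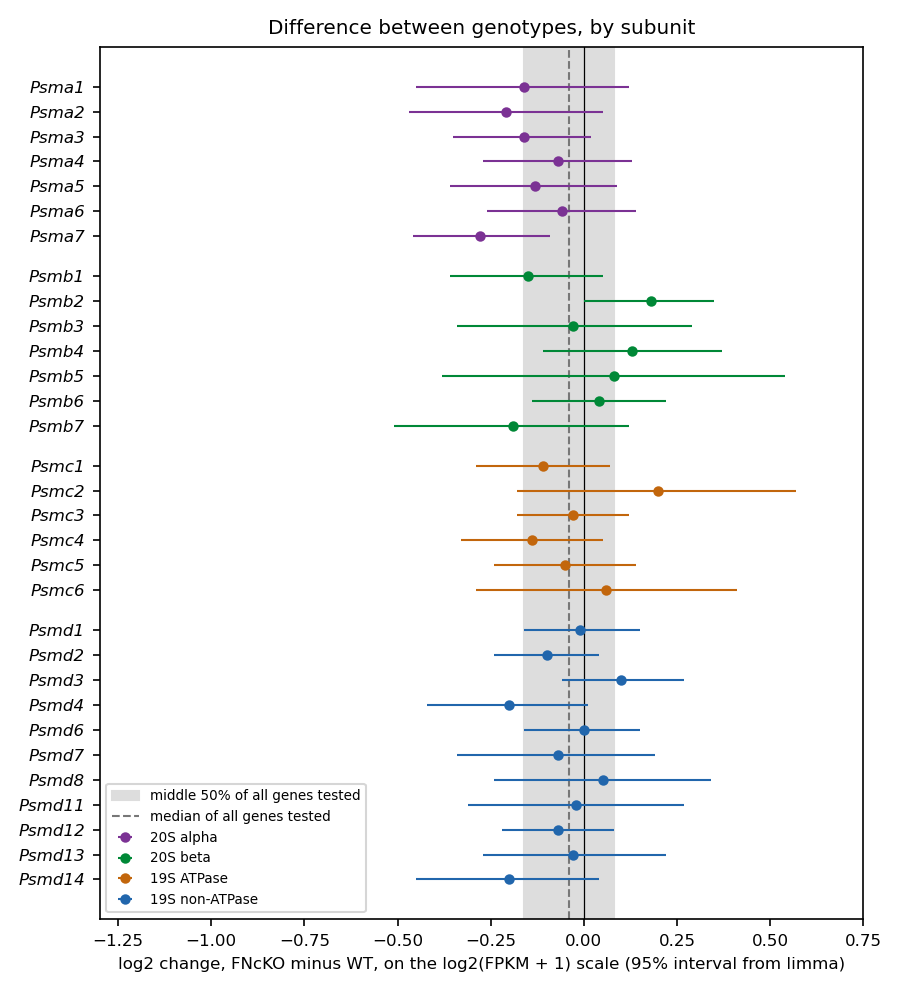
Log2 change of each subunit (FNcKO minus WT) with its 95% interval, in order of position in the complex, over the middle 50% of all genes tested (grey, -0.16 to 0.08) and their median (dashed, -0.04). All points lie between -0.28 and 0.20, and the 7 alpha subunits all lie left of 0.

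The alpha ring had the lowest changes of the 4 groups. All 7 alpha genes had a log2 change under 0, with a median of -0.16, none past limma's adjusted test and 1 at an unadjusted p under 0.05. Psma7 (chromosome 2, 180036367 to 180042464, mm10) stood at 32.04, 33.3 and 35.2 FPKM in WT 1 to 3 and at 27.8, 29.2 and 25.5 FPKM in FNcKO 1 to 3. Each FNcKO library lay below each WT library. The means were 33.5 ± 1.60 and 27.5 ± 1.89 FPKM (SD, n = 3 per genotype). The log2 change was -0.28 (SE 0.075, 95% interval -0.46 to -0.09), the largest in size of the 31 genes, with the smallest p (limma adjusted p = 0.148).

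Psma3 stood at 20.6, 21.4 and 19.6 FPKM in WT and at 19.4, 18.6 and 16.8 FPKM in FNcKO (log2 change -0.16, SE 0.075, limma adjusted p = 0.334). Its groups did not overlap, but the highest FNcKO library and the lowest WT library were 19.4 and 19.6 FPKM. Psma2 stood at 18.7, 21.5 and 22.2 FPKM in WT and 20.3, 17.03 and 16.3 FPKM in FNcKO, with FNcKO 1 inside the WT range (limma adjusted p = 0.376). Psma1, the least abundant subunit, stood at 7.49, 5.88 and 7.03 FPKM in WT and 5.21, 5.97 and 6.74 FPKM in FNcKO, and the groups overlapped. Psma4 has no value in WT 2. It stood at 31.4 and 31.1 FPKM in WT 1 and 3 and at 31.1, 30.4 and 27.8 FPKM in FNcKO (limma adjusted p = 0.696 on 5 libraries), its groups separated only by 31.0995 against 31.0923 FPKM. Psma5 and Psma6 had log2 changes of -0.13 and -0.06 (limma adjusted p = 0.514 and 0.762) and overlapping groups.

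The beta ring was divided, with 3 of 7 genes under 0 and 4 above, and a median log2 change of 0.04. None passed limma's adjusted test and 1 had an unadjusted p under 0.05. Psmb2, a beta subunit without an active site, was that gene. It lies on chromosome 4 (126677634 to 126709715) and stood at 8.81, 7.79 and 8.35 FPKM in WT and at 8.95, 10.04 and 9.62 FPKM in FNcKO (means 8.32 ± 0.512 and 9.54 ± 0.549 FPKM, SD, n = 3 per genotype). It was the only subunit with each FNcKO library above each WT library (log2 change 0.18, SE 0.072, limma adjusted p = 0.275). Psmb1, the most abundant beta gene, stood at 43.8, 49.5 and 44.7 FPKM in WT and 40.0, 39.1 and 44.5 FPKM in FNcKO. FNcKO 3 lay inside the WT range, and the log2 change was -0.15 (SE 0.082, limma adjusted p = 0.391). Psmb3 and Psmb4, which have no active site either, had log2 changes of -0.03 and 0.13 (limma adjusted p = 0.935 and 0.547).

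The 3 catalytic genes did not share a direction. Psmb6 (caspase-like) stood at 33.2, 37.0 and 36.4 FPKM in WT and 35.5, 38.7 and 35.6 FPKM in FNcKO, a log2 change of 0.04 with a 95% interval from -0.14 to 0.22. Psmb7 (trypsin-like) stood at 38.9, 32.9 and 33.7 FPKM in WT and 35.3, 30.8 and 26.1 FPKM in FNcKO. Its log2 change was -0.19 with an interval from -0.51 to 0.12, and FNcKO 1 lay inside the WT range. Psmb5 (chymotrypsin-like) stood at 13.5, 17.8 and 13.01 FPKM in WT and 11.96, 17.5 and 17.9 FPKM in FNcKO, so each genotype held both low and high libraries. Its log2 change was 0.08 with the largest SE of the 31 genes (0.188) and an interval from -0.38 to 0.54. The limma adjusted p-values were 0.813, 0.487 and 0.863.

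Psmb5 RNA was at 15.3 FPKM over all libraries, under the 36.1 and 33.0 FPKM of its catalytic partners Psmb6 and Psmb7. Psmb5 has a near-identical pseudogene copy, Gm3375 (98.9% identity over 796 bases), which stood at 4.05, 6.84 and 3.54 FPKM in WT and 4.72, 7.54 and 4.93 FPKM in FNcKO, or 27.2% to 43.1% of the Psmb5 value. The sum of both was 17.6, 24.6 and 16.5 FPKM in WT and 16.7, 25.03 and 22.9 FPKM in FNcKO, still under either partner in each library. The microRNA row Mir686, which lies in a Psmb5 exon on the same strand, was at 14.9 FPKM in WT 2, 26.6 in FNcKO 2 and 48.2 in FNcKO 3 and under 0.001 FPKM in the other 3 libraries. The libraries with a Mir686 value were the 3 with the highest Psmb5. Its part in the Psmb5 values was not tested.

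Inducible and tissue-restricted subunits were at low levels. Psmb9, Psmb10 and Psmb8 replace Psmb6, Psmb7 and Psmb5 in the immunoproteasome, the form that interferon induces and that leukocytes use. Psmb9 was listed at 0 in 5 libraries and at 0.151 FPKM in FNcKO 1. Psmb8 was listed at 0 in WT 1 and FNcKO 3 and did not exceed 0.218 FPKM elsewhere. Psmb10 ran from 0.518 to 0.971 FPKM, and Psmb7 was between 31.7 and 68.1 times as high in the same library. Psma8, an alpha subunit of germ cells, was above 0 in WT 3 alone, at 0.107 FPKM. All 4 lay under the filter and were not tested. Psmb11, the beta subunit of the thymic proteasome, stood at 1.67, 1.32 and 1.14 FPKM in WT and 1.1204, 1.55 and 1.398 FPKM in FNcKO (limma adjusted p = 0.971), and Psmb5, its neighbour on chromosome 14, was between 8.08 and 13.4 times as high.

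**Figure D3:**
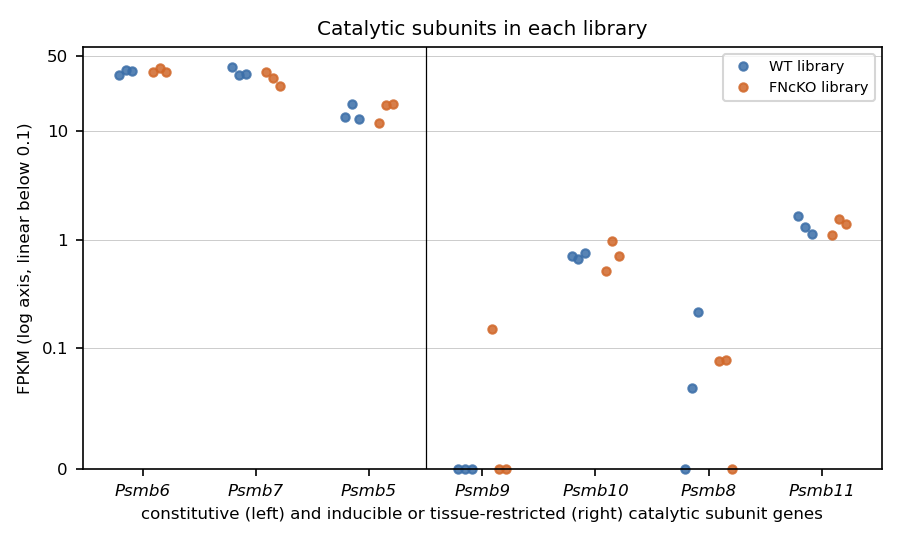
FPKM of the catalytic subunit genes of the constitutive proteasome (left) and of their inducible or tissue-restricted counterparts (right), 1 point per library, on an axis that is logarithmic above 0.1 and linear below. Psmb6, Psmb7 and Psmb5 lie between 11.96 and 38.9 FPKM, and Psmb9, Psmb10 and Psmb8 lie under 1 FPKM in both genotypes.

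Among the 6 ATPases of the 19S base, 4 had a log2 change under 0 and 2 above, with a median of -0.04, none past limma's adjusted test and none at an unadjusted p under 0.05. Psmc3, an ATPase whose tail docks into the alpha ring, varied little between libraries, at 50.3, 51.2 and 50.3 FPKM in WT and 51.4, 50.7 and 47.0 FPKM in FNcKO. Its log2 change was -0.03 with a 95% interval from -0.18 to 0.12. Psmc4 stood at 25.4, 24.2 and 27.2 FPKM in WT and 22.8, 24.8 and 21.7 FPKM in FNcKO (log2 change -0.14, SE 0.077, limma adjusted p = 0.399), with FNcKO 2 inside the WT range. Psmc1 stood at 31.5, 34.6 and 29.8 FPKM in WT and 30.1, 29.4 and 29.0 FPKM in FNcKO (log2 change -0.11, limma adjusted p = 0.495).

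Psmc2 and Psmc6 were set apart by 1 library. Psmc2 stood at 20.3, 21.1 and 20.6 FPKM in WT and at 21.9, 30.5 and 20.2 FPKM in FNcKO, so FNcKO 2 lay far above the other 5 libraries. Its log2 change of 0.20 (limma adjusted p = 0.567) was 0.02 without FNcKO 2 (adjusted p = 0.872). Psmc6, the least abundant ATPase, stood at 11.8, 13.5 and 13.2 FPKM in WT and at 12.01, 16.8 and 11.9 FPKM in FNcKO, again highest in FNcKO 2 (log2 change 0.06, limma adjusted p = 0.866), and its log2 change was -0.09 without that library (adjusted p = 0.579). Psmc5 had means of 48.9 ± 4.04 FPKM (WT) and 47.0 ± 1.16 FPKM (FNcKO; SD, n = 3 per genotype; limma adjusted p = 0.771).

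The 11 non-ATPases had a median log2 change of -0.03, with 9 under 0 and 2 above, and none passed limma's test adjusted or at an unadjusted p under 0.05. Psmd4, the ubiquitin receptor, came nearest. It lies on chromosome 3 (95032688 to 95042614) and stood at 100.3, 101.8 and 112.8 FPKM in WT and 86.6, 99.8 and 86.8 FPKM in FNcKO, with means of 104.96 ± 6.81 and 91.1 ± 7.52 FPKM (SD, n = 3 per genotype). The groups did not overlap, but FNcKO 2 lay less than 1 FPKM below WT 1 (log2 change -0.20, SE 0.088, limma adjusted p = 0.297). Psmd14, the metalloprotease that cuts ubiquitin chains off the substrate, stood at 10.03, 8.73 and 11.3 FPKM in WT and 8.06, 8.98 and 8.61 FPKM in FNcKO (log2 change -0.20, SE 0.101, limma adjusted p = 0.361). FNcKO 2 lay inside the WT range, and Psmd7, its partner in the complex, had a log2 change of -0.07.

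The scaffolds of the base differed little. Psmd1 stood at 26.6, 26.8 and 27.0 FPKM in WT and 27.6, 27.5 and 25.1 FPKM in FNcKO (log2 change -0.01, 95% interval -0.16 to 0.15). Psmd2, which also docks the shuttle proteins that deliver ubiquitinated substrates, stood at 17.8, 18.8 and 18.7 FPKM in WT and 16.6, 17.6 and 17.3 FPKM in FNcKO. Each FNcKO library lay below each WT library, the closest values being 17.6 FPKM in FNcKO 2 and 17.8 FPKM in WT 1 (log2 change -0.10, SE 0.057, limma adjusted p = 0.444). Of the structural lid subunits, Psmd3, the least abundant non-ATPase, stood at 7.98, 8.80 and 8.91 FPKM in WT and 9.54, 8.84 and 9.42 FPKM in FNcKO (log2 change 0.10, limma adjusted p = 0.484). The other 5 lid genes, Psmd6, Psmd8, Psmd11, Psmd12 and Psmd13, had adjusted p-values from 0.622 to 0.985.

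Over the 30 subunits with a value in every library, libraries of one genotype differed among themselves. WT 3 had 23 subunits above their own 6-library mean, WT 2 had 20 and WT 1 had 14, while FNcKO 2 had 18, FNcKO 1 had 10 and FNcKO 3 had 8. The lowest value of a subunit fell in FNcKO 3 for 12 of the 30 and in FNcKO 1 for 8. The median deviation in FNcKO 3 was -0.08 on the log2(FPKM + 1) scale, where all genes had -0.05, and in WT 3 it was 0.04, where all genes had 0.06. In both libraries the median subunit and the median gene lay on the same side of 0.

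**Figure D4:**
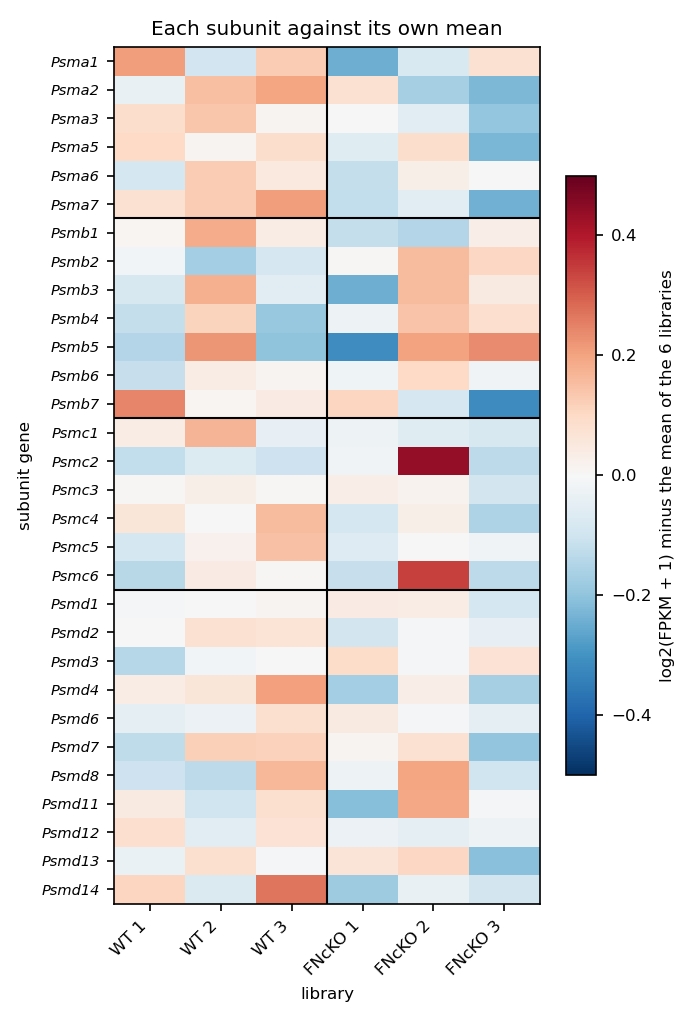
Log2(FPKM + 1) of each subunit minus its mean over the 6 libraries, by library (columns) and position in the complex (rows, divided by lines), from blue (lower) to red (higher). Psma4 is left out because WT 2 has no value for it. FNcKO 3 is blue for most subunits, and Psmc2 and Psmc6 are red in FNcKO 2.

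The balance of core and regulatory particle genes at the RNA level was similar in both genotypes. The mean level of alpha and beta genes over that of the 19S genes was 0.846, 0.880 and 0.794 in WT 1 to 3 and 0.828, 0.801 and 0.860 in FNcKO 1 to 3, and the groups overlapped. Without Psmd4 the ratio was 1.02 ± 0.0426 (WT) and 0.984 ± 0.0326 (FNcKO; SD, n = 3 per genotype). The mean level of the 6 alpha genes with all values was 18.2, 19.2 and 19.4 FPKM in WT and 16.9, 17.2 and 15.9 FPKM in FNcKO, with no overlap, while the beta, ATPase and non-ATPase means overlapped. No test was made of these sums, since the members were chosen with results known.

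The sign of a change this small moved with the scaling between libraries. With median-ratio scaling 17 of the 31 subunits had a log2 change under 0, after quantile normalization 12, with all libraries brought to one FPKM total 1, and with the same total without crystallins 0. The median of all genes moved with it, from -0.04 as deposited to 0.15 and 0.29 with the last 2 scalings. Relative to all genes, the subunits' median stayed within 0.06 in all 5 scalings. Apart from quantile normalization, the other scalings divide each library by a constant. Such a division moves subunits and all genes nearly alike, so a steady place relative to all genes is no separate support. The alpha median was under that of all genes by 0.12 as deposited and by 0.11, 0.10, 0.07 and 0.05 with median-ratio, quantile, same-total and crystallin-free same-total scaling, with 5 to 7 of 7 genes below it. The beta median was above that of all genes by 0.08 as deposited and by 0.09 to 0.16 in the other 4. With 1 library left out these offsets were as small as 0.01 above for beta (without FNcKO 3). For alpha they were as small as 0.06 below (without WT 1). The difference between the alpha and beta groups was seen in the data and not tested.

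**Figure D5:**
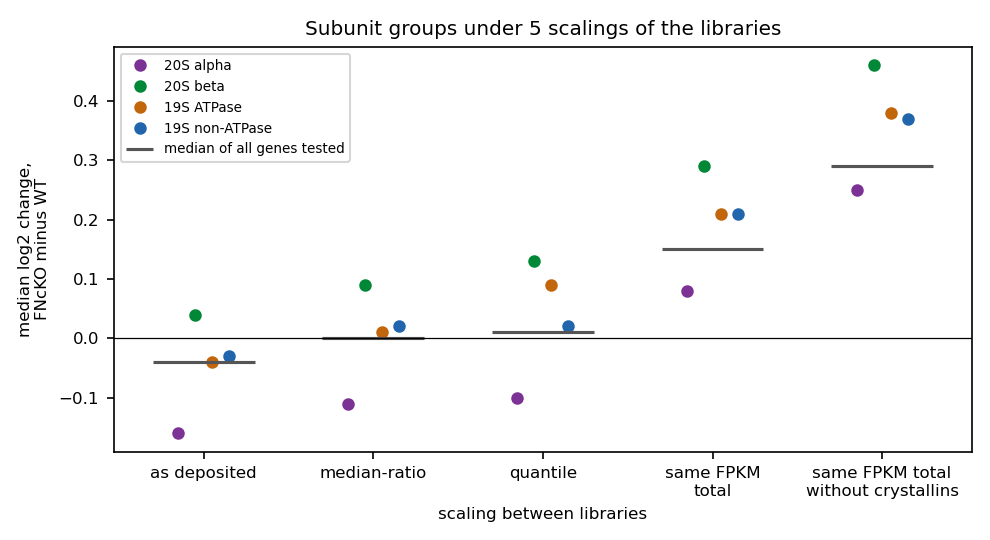
Median log2 change (FNcKO minus WT) of the 4 subunit groups (points) and of all genes tested (bars) with the values as deposited and under 4 other scalings of the libraries. The bars climb from -0.04 to 0.29, and the alpha point lies below the bar and the beta point above it in each of the 5.

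Of 52 further genes that work with the proteasome or replace its subunits, 43 were tested, with 0 past limma's adjusted test and 2 at an unadjusted p under 0.05 (Akirin2 and Rps27a), against 1.89% and 18.1% of all genes. Of the 5 remaining 19S subunits and base assembly chaperones, all were tested and 4 had a log2 change under 0 (median -0.08). Shfm1, the smallest lid subunit, was more abundant than any of the 31 members, with means of 149.5 ± 5.47 (WT) and 140.3 ± 7.66 FPKM (FNcKO; SD, n = 3 per genotype; limma adjusted p = 0.566). Psmd10, a base chaperone without a value in WT 2, had the smallest p of these 5 (limma adjusted p = 0.49), and Adrm1, a ubiquitin receptor, stood at adjusted p = 0.724. Of the 5 chaperones of 20S assembly 4 were tested, all with a log2 change above 0 (median 0.13). Pomp, which helps close the core, stood at 38.9, 42.7 and 37.2 FPKM in WT and 41.3, 47.5 and 43.6 FPKM in FNcKO (limma adjusted p = 0.41), and Psmg1 at 6.65 ± 1.61 and 7.95 ± 1.503 FPKM (SD, n = 3 per genotype; limma adjusted p = 0.571).

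Of the 10 activators, inhibitors and associated proteins, 6 had a log2 change under 0 (median -0.08). Akirin2, which carries proteasomes into the nucleus, stood at 4.61, 5.11 and 4.19 FPKM in WT and 6.18, 6.92 and 5.42 FPKM in FNcKO. Each FNcKO library lay above each WT library (log2 change 0.35, SE 0.104, limma adjusted p = 0.175). Psme2, a subunit of the interferon-inducible activator cap, stood at 7.84, 7.56 and 8.10 FPKM in WT and 7.32, 7.12 and 6.81 FPKM in FNcKO, without overlap (log2 change -0.13, SE 0.059, limma adjusted p = 0.322).

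Of 12 genes of transcriptional control 9 were tested, 4 with a log2 change under 0 (median 0.01). Nfe2l1, the factor named above, stood at 14.05, 12.99 and 15.3 FPKM in WT and 11.9, 12.9 and 12.2 FPKM in FNcKO. Each FNcKO library lay below each WT library, with FNcKO 2 next to WT 2 (log2 change -0.18, SE 0.077, limma adjusted p = 0.297). Nfyb, a subunit of the factor that binds the CCAAT box, stood at limma adjusted p = 0.455. Of 15 ubiquitin and shuttle genes 14 were tested, 11 with a log2 change under 0 (median -0.06). Rps27a, which encodes ubiquitin fused to a ribosomal protein, stood at 393.8, 414.8 and 408.4 FPKM in WT and 346.9, 376.0 and 331.9 FPKM in FNcKO, without overlap (log2 change -0.21, SE 0.075, limma adjusted p = 0.233).

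The division of fragments between genes limits some of these levels. Pseudogene copies with at least 90% identity over 300 bases or more were found in GENCODE M21 for 12 of the 31 subunits, 25 copies in all, of which 18 have a row in the table and 4 a mean of at least 1 FPKM. Besides Gm3375 these were copies of Psma3 (Gm13835, 2.72 FPKM), Psma4 (Gm6542, 1.1214 FPKM) and Psmd11 (Gm14048, 1.64 FPKM). Gm13835 has 100% identity to Psma3 over 665 bases, and its means were 3.08 (WT) and 2.36 FPKM (FNcKO; limma adjusted p = 0.381). The part of Gm13835 in the Psma3 values was not tested. No copy was found for Psma7, Psmb2 or Psmd4. Exons of Psmb7, Psmc3 and Psmd13 overlap antisense exons of Nek6, Slc39a13 and Sirt3, and those of Psmd1, Psma4, Psma5 and Psmd3 overlap exons of other genes on the opposite strand as well. Psmd1 also shares exon bases with Gm21972 on its own strand. Slc39a13 stood at 8.62 FPKM beside 50.1 FPKM for Psmc3, Nek6 at 1.69 FPKM beside 33.0 for Psmb7, and Sirt3 at 1.17 FPKM beside 11.4 for Psmd13. Without the use of strand being stated, such fragments cannot be told apart.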

How the data were processed

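RNA sequencing libraries of 2 lenses each were measured in 3 WT and 3 FNcKO samples. FPKM values were computed and deposited by the authors as 1 table with a column per library. The tools are, per the submitters' processing notes, Cuffdiff 2.2.1, TopHat2 2.1.0, cutadapt 1.12 and FastQC, and the builds mm10 and GRCm38.p5. Neither labels nor table header state annotation, strand use, multi-mapping or scaling between libraries.

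Values were transformed to log2(FPKM + 1), keeping the 10149 genes whose mean reached 1 FPKM. Genotypes were compared two-sided by limma 3.58.1 (R 4.3.3) with trended empirical Bayes moderation and Benjamini-Hochberg adjustment over all genes at 0.05. A gene without a value in WT 2 was fitted on 5 libraries. Folds from log2 changes on this scale understate the change of low genes. Medians and counts over the subunits are descriptions, given beside those of all genes.

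Depth was estimated from single-exon genes of at least 800 bases, whose low FPKM are multiples of 1 fragment. The depth between 12000000 and 45000000 that brought values closest to whole numbers was taken. Lengths were shortened by 200 bases, a setting chosen by the same closeness. Between 66.2% and 72.2% of values then lay within 0.15 of a whole number, where 30% would at a depth fixed beforehand. Depth and shortening were fitted to these same values, so a share above 30% is partly built in. Fragments per subunit used the longest coding transcript of GENCODE M21. Depths entered no test.

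Pseudogene copies were found with BLAST 2.17.0. Subunits and lists were chosen with earlier results of these data known. The text gives library values for the 3 catalytic subunits, for the 2 smallest p, the highest and the lowest mean level in each group, and for subunits whose pattern over libraries was noticed later. Of each list it names at most 4 genes by p, while Shfm1, Adrm1, Psmb10, Psmb8, Psmb9 and Psma8 were named for what they are. The result of 1 listed gene is not reported here. Alternatives were pseudocount 0.1, no filter, a filter of 5 FPKM, 4 other scalings, complete genes, no trend, a replicate block and each library left out.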

Additional observations from a re-analysis of the deposited data

How the results depend on the processing

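No subunit passed the adjusted test under any of the 16 alternatives, and the lowest adjusted p was 0.0863 (Psma7, median-ratio scaling). The number of genes past the test, 192 as reported, was 101 without a filter on low values, 89 with the same FPKM total, 86 with the same total without crystallins, 14 with a replicate block, and between 48 (without WT 1) and 111 (without FNcKO 1) with each of the 6 libraries left out in turn. The median log2 change of the subunits, -0.06 as reported, was -0.01 with median-ratio scaling, 0.18 with the same total, 0.35 with the same total without crystallins and 0.03 after quantile normalization, and between -0.09 and -0.05 with 1 library left out. The number of subunits under 0, 23 as reported, was 17, 1, 0 and 12 under those 4 scalings and 19 to 25 with 1 library left out. The move of the median of all genes under the same scalings is given above, and 6, 22, 23 and 11 subunits took the other sign. The share of called genes that were higher in FNcKO was 45.3% as reported and 57.9%, 70.8%, 76.7% and 60.4% under those scalings. Same-numbered libraries showed no shared deviation. Their deviations from their group means correlated at -0.03, -0.05 and -0.05 across 9407 genes, and none of the 6 correlated best with its own number. Whether they were paired in collection cannot be told from these values. With the replicate block the subunits' median was -0.06. Lower estimated depth in FNcKO and 3 libraries per group limit the precision to the intervals given, which hold for the values as deposited.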
